A study of Mus musculus with 28 samples.

Results

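The cytokine receptor chains of mouse germinal center B cells were taken as a set of 8 genes: Il9r, Il21r, Il4ra and Il2rg of the common gamma chain family, Il10ra, Il6st, Ifngr1 and Ifnar1. A chain was kept when its mean reached at least 1 CPM, a read count scaled to the library's total, in any genotype group. All 8 of 8 met this rule, out of 23382 genes listed and 11186 genes at that level.

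Cytokine receptors of this class are assembled from different chains whose cytoplasmic tails hold JAK kinases. Ligand binding brings the kinases together, they phosphorylate STAT transcription factors, and SOCS proteins and phosphatases limit the signal. In the germinal center, follicular helper T cells supply IL-21 and IL-4, whose receptors on the B cell share the common gamma chain, and the IL-9 receptor is known from memory B cells.

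By its title the study concerned TBL1XR1 mutations and a memory fate of germinal center B cells. Tbl1xr1 encodes a subunit of the SMRT/NCOR corepressor complex, which the repressor BCL6 uses. RNA-seq was made from 28 libraries in 6 groups, all from mice heterozygous for Cg1Cre, an allele that expresses Cre recombinase in activated B cells. The groups were Tbl1xr1 D370Y/WT (D370Y, 5 libraries), ImuBcl6 with Tbl1xr1 D370Y/WT (ImuBcl6 D370Y, 5), ImuBcl6 with Tbl1xr1 WT/WT (ImuBcl6, 5), Tbl1xr1 KO/KO (KO, 5), Tbl1xr1 WT/WT (WT, 3), and a further Tbl1xr1 WT/WT group (Cre control, 5). In ImuBcl6 mice an immunoglobulin heavy-chain promoter drives Bcl6 expression in B cells. D370Y was set against WT, ImuBcl6 D370Y against ImuBcl6, and KO against the Cre control, and these 3 comparisons share no library. The sources used here name neither age, immunization nor animal for a library. Every p-value therefore measures the spread between these libraries, which may be technical.

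Libraries held 19.0 to 37.7 M reads on listed genes, and 3 reads corresponded to 0.0640 to 0.133 CPM. Each chain had at least 147 reads in every library. KO replicate 3 stood apart, with 64.4% of the authors' CPM denominator on listed genes, against 78.7% to 84.6% in the other 27 libraries. Tbl1xr1 itself was not lower in the libraries labelled KO (102 ± 15.4 CPM, against 86.0 ± 5.82 CPM in the Cre control, SD, n = 5 each). The sources used here do not say which part was deleted, and a whole-gene value checks nothing outside that part. KO below means the libraries labelled KO. By Xist and Y-linked transcripts all 5 D370Y libraries were female and all 3 WT libraries male, all 5 ImuBcl6 D370Y libraries were male and all 5 ImuBcl6 libraries female, and 2 of 5 KO and 4 of 5 Cre control libraries were female. In consequence, sex cannot be told apart from genotype in either D370Y comparison or in ImuBcl6 against WT. The 12 B cell and germinal center markers summed to 4929 to 8926 CPM, and the 10 T cell markers to at most 14.9 CPM. Of the T cell receptor subunits Cd3e did not exceed 0.479 CPM, while Cd3g reached 9.12 CPM.

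The regions just upstream are shown for Il9r, the chain whose level varied most, and Il6st, the chain of lowest level, since both were higher in D370Y. Each run is the 250 bases before the annotated start on the coding strand, 5′ to 3′, from RefSeq on GRCm38.p6, at chr11:32200280-32200529 on the minus strand for Il9r and chr13:112463820-112464069 on the plus strand for Il6st.
Il9r: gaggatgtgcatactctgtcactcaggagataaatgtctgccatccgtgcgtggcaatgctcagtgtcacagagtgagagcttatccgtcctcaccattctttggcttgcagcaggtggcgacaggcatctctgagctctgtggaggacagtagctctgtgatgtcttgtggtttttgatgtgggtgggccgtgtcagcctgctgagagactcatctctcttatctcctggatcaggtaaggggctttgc
Il6st: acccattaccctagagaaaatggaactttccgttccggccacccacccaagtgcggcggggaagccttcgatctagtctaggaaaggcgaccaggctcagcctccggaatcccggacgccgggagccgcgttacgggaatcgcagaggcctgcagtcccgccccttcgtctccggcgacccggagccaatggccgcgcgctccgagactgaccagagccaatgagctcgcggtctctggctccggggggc
The Il9r run had a GC content of 52.8% and 5 CG dinucleotides, and the Il6st run 66.0% and 26, beside a median GC of 52.4% over 32851 such windows. Upstream windows were matched for 7 of the 8 chains, all but Il10ra. None of the 7 held the STAT motifs TTCNNNGAA or TTCNNNNGAA or the interferon response motif GAAANNGAAA on either strand. Over all windows of that length 7.02%, 5.85% and 2.98% held them, and the motifs may overlap one another. The absence says only that these letters are not in the windows searched.

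Levels were compared between chains per kilobase of annotated exons (GENCODE M21, GRCm38, the assembly that mm10 names). The length joins all annotated exons of a gene, whether or not these cells use them, and the order of chains depends on it. Il21r, the IL-21 specific chain, was the most abundant in every group, with group means of 84.0 to 102 CPM per kilobase. It lies on chromosome 7 (125603429 to 125633570, plus strand), 23954 bases beyond the end of Il4ra (125552120 to 125579474, plus strand), the IL-4 binding chain. Il2rg (chromosome X, 101264378 to 101268255, minus strand), the common gamma chain, had 57.3 to 74.4 CPM per kilobase. Il4ra had 37.8 to 69.4 CPM per kilobase, and ranked above Il2rg in the KO and Cre control groups and below it in the other 4. In CPM, without division by length, Il4ra was above Il21r in KO (417 against 326) and in the Cre control (413 against 341). Ifngr1 (chromosome 10, 19591949 to 19610229, plus strand), the ligand-binding chain of the interferon-gamma receptor, had 18.1 to 27.1 CPM per kilobase. Il10ra (chromosome 9, 45253837 to 45269149, minus strand), the ligand-binding chain of the IL-10 receptor, had 12.3 to 22.5 CPM per kilobase. Ifnar1 (chromosome 16, 91485238 to 91507441, plus strand), a chain of the type I interferon receptor, had 6.41 to 9.57 CPM per kilobase. Il6st (chromosome 13, 112464070 to 112510086, plus strand), which encodes gp130, the signal-transducing chain shared by the IL-6 family, was lowest in every group at 0.46 to 1.20 CPM per kilobase.

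**Figure D1:**
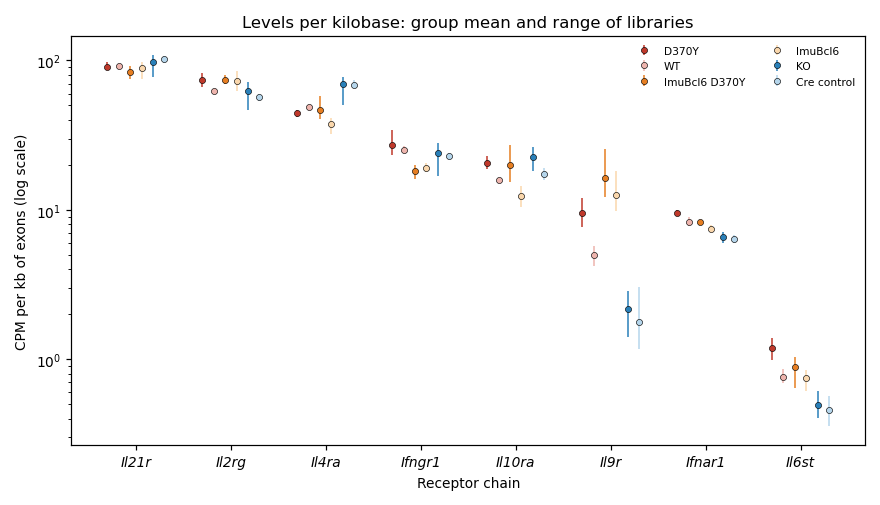
Level of each receptor chain per kilobase of exons (vertical axis, CPM per kilobase, log scale) in the 6 groups. Points are group means and lines run from the lowest to the highest library. Il21r lies highest and Il6st lowest in every group, and Il9r spreads most widely between groups.

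Il9r, the IL-9 specific chain (chromosome 11, 32187541 to 32200279, minus strand), differed most between groups. Its mean CPM was highest in ImuBcl6 D370Y (81.2 ± 26.3, SD, n = 5), followed by ImuBcl6 (61.8 ± 17.2), D370Y (47.5 ± 8.68), WT (24.8 ± 3.65, n = 3), KO (10.8 ± 2.75) and the Cre control (8.75 ± 4.09). The highest group mean was 9.28 times the lowest. Libraries of neighbouring groups in this order overlapped except between D370Y and WT and between WT and KO. The other 7 chains spanned 1.22-fold (Il21r) to 2.60-fold (Il6st) between their highest and lowest group means. WT and the Cre control carry the same genotype label, and the ratio of their Il9r means was 2.84. The labels name a stranded TruSeq kit for KO and its Cre control alone and no kit for the other groups, so levels across these sets stand side by side, untested.

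**Figure D2:**
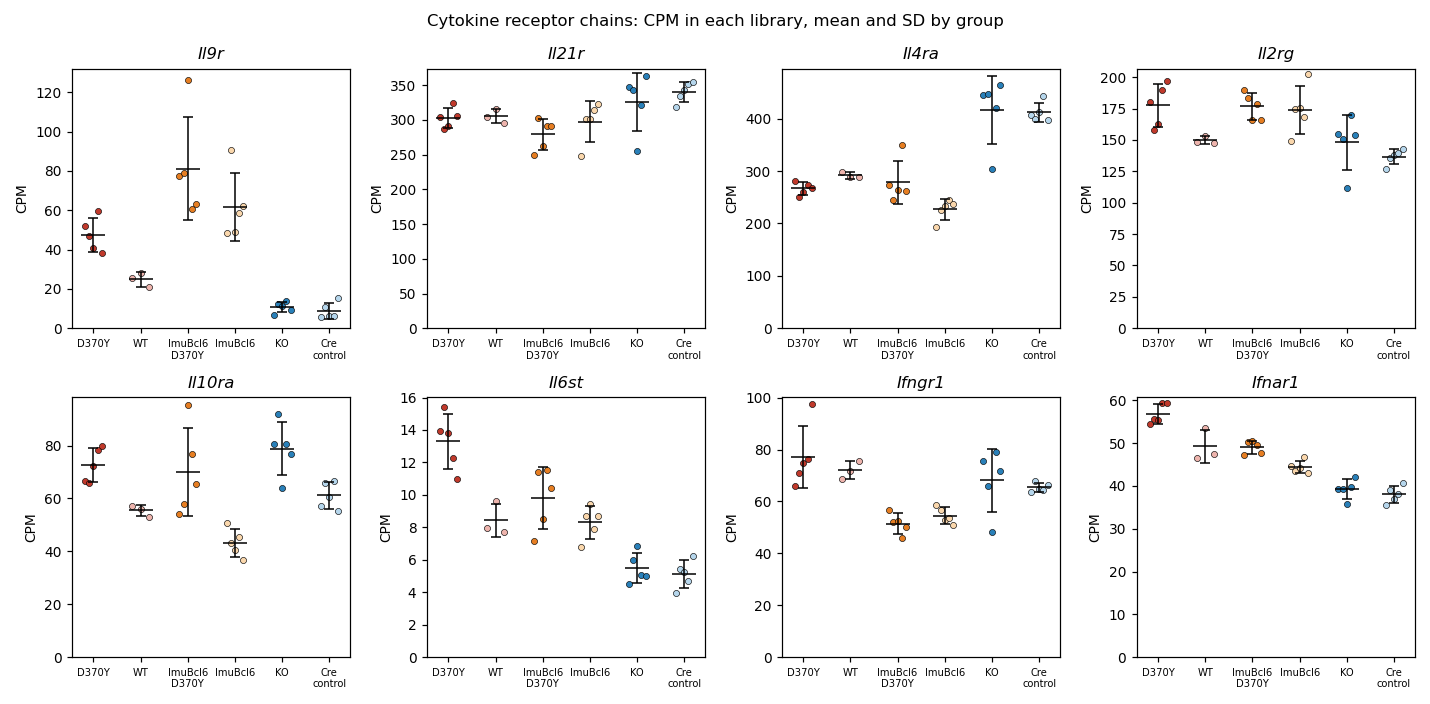
CPM of each receptor chain (vertical axis, from 0) in every library of the 6 groups, with a point for each library and bars for the group mean and SD. Il9r ranges from 5.78 to 126 CPM, Il10ra is higher in every D370Y library than in any WT library, and Il21r differs little between groups.

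In D370Y cells 3 of the 8 chains were higher than in WT and none was lower. They were Il9r, Il6st and Il10ra. A gene was called at a limma adjusted p under 0.05 over all genes tested, and 3.55% of 10600 genes were called in this comparison (2.6% higher and 0.943% lower). The chains' median log2 fold change, on the scale of log2(CPM + 1), was 0.22, beside -0.02 over all genes. In ImuBcl6 cells 1 of 8 chains, Il10ra, was higher with the allele, where 8.18% of 10784 genes were called (2.8% higher and 5.38% lower). The chains' median there was 0.17, beside -0.01 over all genes. Between KO and Cre control 0 of 8 chains passed limma's test, where 1.39% of 10514 genes were called (0.476% higher and 0.913% lower). Il10ra alone had an unadjusted p under 0.05, as held for 951 of the 10514 genes. edgeR and DESeq2, run on whole reads recovered from the CPM, each called 1 chain there, Il10ra. Of the 10514 genes edgeR called 238 and DESeq2 455. The median of the chains was 0.06 in KO, beside -0.06 over all genes. In bulk RNA, fewer cells of a type and less RNA per cell cannot be told apart.

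**Figure D3:**
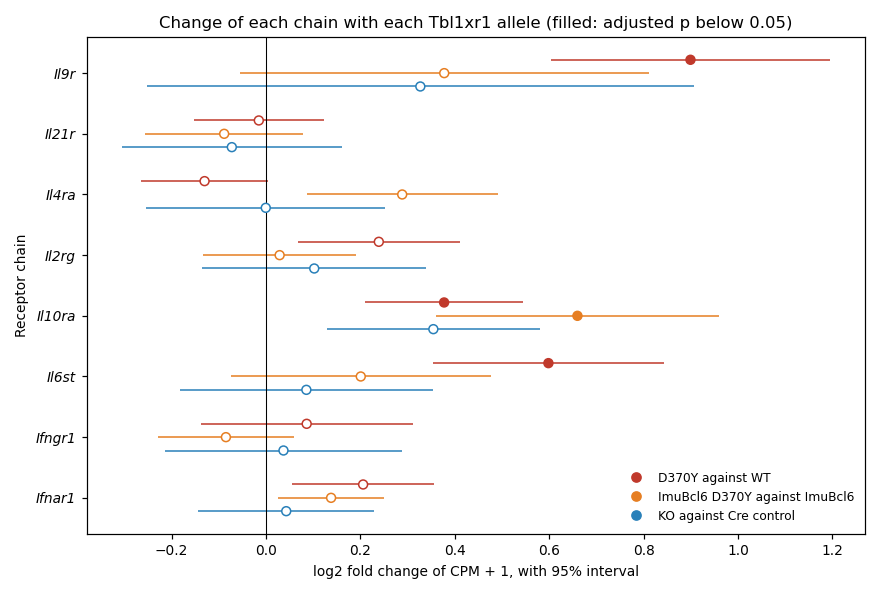
Difference of each receptor chain between each Tbl1xr1 allele and its control (horizontal axis, log2 fold change of CPM + 1) with its 95% interval. Filled points passed limma's test at an adjusted p under 0.05. Il10ra lies above 0 in all 3 comparisons, at 0.38, 0.66 and 0.35.

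Il10ra was the chain called in both D370Y comparisons. It had 66.8, 65.8, 72.1, 78.2 and 79.7 CPM in the D370Y libraries, against 57.3, 56.0 and 53.1 CPM in the WT libraries. In ImuBcl6 D370Y libraries it had 54.1, 57.7, 95.2, 76.8 and 65.5 CPM, against 50.7, 43.0, 40.3, 45.2 and 36.6 CPM in ImuBcl6 libraries. Neither pair of groups overlapped. Every library lay above every control for 7.5% of genes in the first comparison and 3.32% in the second. The log2 fold change was 0.38 ± 0.08 (SE, limma adjusted p = 0.0187) in D370Y and 0.66 ± 0.14 (adjusted p = 0.0128) in ImuBcl6 D370Y. In D370Y the call was lost without any 1 of the WT libraries, with an adjusted p of 0.0675, 0.0809 and 0.123 without WT replicate 1, 2 and 3. In ImuBcl6 D370Y it held without any single library (adjusted p 0.00811 to 0.0422).

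KO libraries had 80.5, 91.9, 63.9, 80.5 and 76.9 CPM of Il10ra, against 57.1, 66.0, 60.6, 66.7 and 55.3 CPM in Cre control libraries. KO replicate 3 lay within the control range and the other 4 KO libraries above it. The difference was 0.35 ± 0.11 (95% interval 0.13 to 0.58, limma adjusted p = 0.148) and did not pass. As CPM over the reads on listed genes, Il10ra had 95.2, 110.3, 99.2, 96.6 and 93.1 in KO, against 70.7, 79.7, 72.2, 80.2 and 66.4 in the Cre control. These ranges did not overlap, and the log2 fold change of 0.42 passed (adjusted p = 0.00686). It also passed without KO replicate 3 (0.43, adjusted p = 0.00387), and with a sex term it was 0.32 (adjusted p = 0.195).

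Il10rb encodes the other chain of the IL-10 receptor, which the IL-22 and interferon-lambda receptors also use, and it rose in both D370Y comparisons. It had 31.2, 32.9, 34.2, 31.3 and 40.1 CPM in D370Y, against 23.6, 23.6 and 26.4 CPM in WT (0.45 ± 0.09, limma adjusted p = 0.0148). In ImuBcl6 D370Y it had 28.9, 32.4, 35.9, 33.8 and 31.5 CPM, against 24.1, 25.5, 23.2, 26.4 and 29.6 CPM in ImuBcl6 (0.33 ± 0.08, adjusted p = 0.0238). The D370Y libraries all lay above the WT libraries, as held for 7.5% of genes, and ImuBcl6 D370Y and ImuBcl6 overlapped by 1 library each. KO libraries held 31.7, 28.5, 19.0, 36.4 and 30.4 CPM, against 19.3, 18.3, 18.7, 19.6 and 21.7 CPM in the Cre control (0.53 ± 0.14, adjusted p = 0.0624). Only KO replicate 3 lay among the controls. Leaving out 1 library at a time ended the Il10rb call in 2 of 8 fits for D370Y and 4 of 10 for ImuBcl6 D370Y.

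Markers of several cell types moved beside Il10ra, those of myeloid cells and naive B cells in both D370Y comparisons. The 14 myeloid markers summed to 37.7 to 54.4 CPM in D370Y, against 17.4 to 22.7 CPM in WT, and to 33.9 to 57.9 CPM in ImuBcl6 D370Y, against 20.2 to 24.9 CPM in ImuBcl6. Of those tested, 5 of 9 rose in D370Y and 4 of 6 in ImuBcl6 D370Y, among them Lyz2, Emr1 and Itgam in both, while S100a8 did not exceed 0.153 CPM in any library. In KO the myeloid sum was 69.7 to 173 CPM, against 87.3 to 127 CPM in the Cre control, and 0 of 10 tested were called by limma or had an unadjusted p under 0.05. The 6 naive B cell markers summed to 654 to 1139 CPM in D370Y, against 612 to 718 CPM in WT. Their sum was 426 to 515 CPM in ImuBcl6 D370Y, against 292 to 364 CPM in ImuBcl6, and 385 to 501 CPM in KO, against 330.4 to 369 CPM in the Cre control. Called higher were 4 of 6 in D370Y, 3 of 6 in ImuBcl6 D370Y and 1 of 6 in KO. Over all genes 2.6%, 2.8% and 0.476% were called higher in these comparisons. T cell markers summed to 7.72 to 14.9 CPM in ImuBcl6 D370Y, against 5.11 to 8.16 CPM in ImuBcl6, and 1 of 3 tested rose there, Cd3g (1.45 ± 0.28, limma adjusted p = 0.00927). In D370Y the T cell sum was 6.85 to 12.5 CPM, against 6.12 to 7.01 CPM in WT, and in KO 4.26 to 7.22 CPM, against 4.17 to 6.63 CPM in the Cre control. The 4 stroma and endothelium markers summed to 74.5 to 113 CPM in D370Y, against 71.2 to 72.1 CPM in WT, and to 60.3 to 94.3 CPM in ImuBcl6 D370Y, against 45.6 to 60.5 CPM in ImuBcl6. Pecam1 rose in ImuBcl6 D370Y (0.42 ± 0.12, adjusted p = 0.0455, lost in 8 of 10 fits without 1 library). In KO that sum was 52.5 to 77.0 CPM, against 49.8 to 63.1 CPM in the Cre control. Col1a1 and Col3a1 were at 0 CPM in every WT library, so the WT sum was Pecam1 and Cdh5 alone. Col3a1 was at 0 CPM in every Cre control library too. In each allele comparison 2 of these 4 markers passed the filter on low values. Of the 12 B cell and germinal center markers, limma called 1 lower in D370Y, 2 in ImuBcl6 D370Y and 1 in KO, and 0 higher. Limma called 0.943%, 5.38% and 0.913% of all genes lower there. For these 12 markers the typical change was small. Their median log2 fold change was -0.09, -0.14 and -0.04, beside -0.02, -0.01 and -0.06 over all genes. The one called in all 3 was Gcet2, lower in D370Y (-0.48 ± 0.11, adjusted p = 0.0315, lost in 4 of 8 fits without 1 library), ImuBcl6 D370Y (-0.78 ± 0.12, adjusted p = 0.00254) and KO (-0.69 ± 0.11, adjusted p = 0.00177). The part of these markers in the Il10ra values was not tested.

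**Figure D4:**
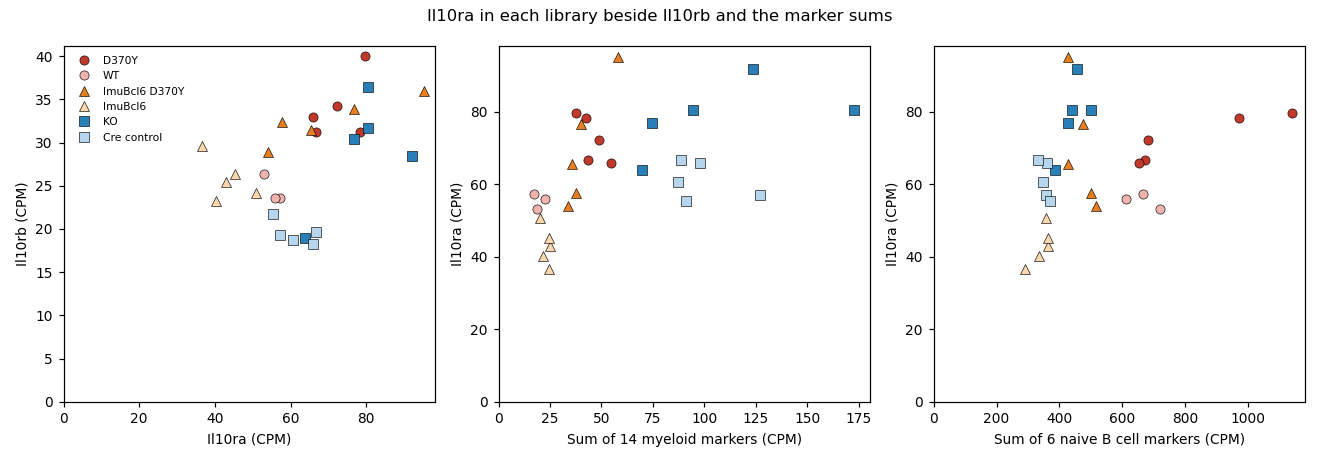
Il10ra in each library (CPM) beside Il10rb (left), the sum of 14 myeloid markers (middle) and the sum of 6 naive B cell markers (right), with dark symbols for the allele and light symbols for its control. In the middle plot the D370Y and ImuBcl6 D370Y libraries lie at higher sums than their controls, and the KO sums of 69.7 to 173 CPM span the Cre control sums of 87.3 to 127 CPM.

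Among the common gamma chain family, Il9r rose in D370Y. It had 52.2, 46.8, 40.6, 59.5 and 38.2 CPM in D370Y libraries, against 25.4, 28.1 and 20.9 CPM in WT libraries, 1.91 times as much on average (log2 fold change 0.90 ± 0.14, limma adjusted p = 0.00345). Every D370Y library lay above every WT library, as held for 7.5% of genes, and the call held without any single library (adjusted p 0.00202 to 0.0278). In ImuBcl6 D370Y libraries Il9r had 77.3, 78.8, 126, 60.8 and 63.3 CPM, against 48.4, 90.6, 48.9, 58.7 and 62.2 CPM in ImuBcl6 libraries. Those groups overlapped, and the difference of 0.38 ± 0.20 did not pass (adjusted p = 0.275, 95% interval -0.06 to 0.81). Without ImuBcl6 D370Y replicate 3, the highest library, it was 0.21. KO libraries had 6.93, 12.4, 11.1, 14.1 and 9.34 CPM, against 5.78, 10.6, 5.98, 6.26 and 15.1 CPM in the Cre control. They overlapped as well (0.33 ± 0.26, adjusted p = 0.843, 95% interval -0.25 to 0.91).

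Il21r passed in none of the allele comparisons. It averaged 302 ± 14.5 CPM in D370Y and 305 ± 9.91 CPM in WT, 279 ± 22.5 CPM in ImuBcl6 D370Y and 298 ± 29.2 CPM in ImuBcl6, and 326 ± 41.9 CPM in KO and 341 ± 14.6 CPM in the Cre control. The 95% interval of its log2 fold change was -0.15 to 0.12 in D370Y, -0.26 to 0.08 in ImuBcl6 D370Y and -0.31 to 0.16 in KO. All neighbouring groups in its order of levels overlapped.

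Il4ra had its highest levels in KO (417 ± 64.7 CPM) and the Cre control (413 ± 18.3 CPM), which overlapped. It averaged 267 ± 11.9 CPM in D370Y and 292 ± 6.22 CPM in WT, and every D370Y library lay below every WT library, as held for 7.27% of genes. That difference did not pass (-0.13 ± 0.06, limma adjusted p = 0.290). In ImuBcl6 D370Y it averaged 279 ± 41.1 CPM, against 227 ± 20.6 CPM in ImuBcl6 (0.29 ± 0.09, adjusted p = 0.0771). DESeq2 called the difference in ImuBcl6 D370Y (adjusted p = 0.0213).

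Il2rg averaged 178 ± 16.9 CPM in D370Y and 149.8 ± 3.12 CPM in WT (0.24 ± 0.08, limma adjusted p = 0.125), and every D370Y library lay above every WT library, as held for 7.5% of genes. The gene is X-linked and these groups differ in sex. In the ImuBcl6 background it averaged 177 ± 10.8 CPM with D370Y and 174 ± 19.1 CPM without (0.03 ± 0.08, adjusted p = 0.862). KO libraries averaged 148 ± 21.8 CPM and Cre control libraries 137 ± 6.05 CPM (0.10 ± 0.11, adjusted p = 0.887). Without KO replicate 3 the KO difference was 0.20 and passed (adjusted p = 0.0485).

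Il6st rose in D370Y, to 14.0, 15.4, 13.8, 12.3 and 11.0 CPM, against 7.96, 9.60 and 7.71 CPM in WT. Every D370Y library lay above every WT library, as held for 7.5% of genes, and the mean was 1.58 times that of WT (log2 fold change 0.60 ± 0.11, limma adjusted p = 0.0112). The call was lost without WT replicate 1 (adjusted p = 0.0710) and without WT replicate 3 (adjusted p = 0.0875). ImuBcl6 D370Y libraries had 7.17, 11.4, 8.48, 11.5 and 10.4 CPM, against 6.82, 8.70, 9.47, 7.89 and 8.73 CPM in ImuBcl6 libraries (0.20 ± 0.13, adjusted p = 0.375). KO libraries had 4.51, 5.99, 6.83, 5.05 and 5.01 CPM, against 3.95, 5.45, 5.22, 4.66 and 6.26 CPM in Cre control libraries (0.09 ± 0.13, adjusted p = 0.901). Both of those pairs overlapped. Of 6 plasma cell markers 2 rose in D370Y, Irf4 and Prdm1, beside 2.6% of all genes. The sum of the 6 markers was 1906 to 3737 CPM, against 2364 to 2633 CPM in WT. Their part in the Il6st difference was not tested.

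Of the interferon receptor chains, neither Ifngr1 nor Ifnar1 passed limma's test in any allele comparison. Ifngr1 averaged 77.1 ± 12.1 CPM in D370Y and 72.0 ± 3.55 CPM in WT, 51.4 ± 3.98 CPM in ImuBcl6 D370Y and 54.5 ± 3.12 CPM in ImuBcl6, and 68.1 ± 12.2 CPM in KO and 65.4 ± 1.70 CPM in the Cre control. All 3 pairs overlapped. Ifnar1 lay above every control library in both D370Y comparisons, as held for 7.5% of genes in D370Y and 3.32% in ImuBcl6 D370Y. It had 54.5 to 59.5 CPM in D370Y (median 55.6), against 46.6 to 53.6 CPM in WT (median 47.5), and 47.3 to 50.4 CPM in ImuBcl6 D370Y (median 49.6), against 43.1 to 46.8 CPM in ImuBcl6 (median 44.3). The differences of 0.21 ± 0.07 (limma adjusted p = 0.132) and 0.14 ± 0.05 (adjusted p = 0.122) did not pass, and DESeq2 called the one in ImuBcl6 D370Y (adjusted p = 0.0324). In KO it had 35.7 to 42.1 CPM, against 35.5 to 40.6 CPM in the Cre control (0.04 ± 0.09, adjusted p = 0.925).

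Ifnar2, the other chain of the type I interferon receptor, had 22.1, 19.7, 15.5, 21.7 and 18.2 CPM in KO libraries, against 13.5, 12.6, 14.9, 13.7 and 14.7 CPM in Cre control libraries. All 5 KO libraries lay above all 5 controls, as held for 0.742% of genes. The difference passed (0.45 ± 0.11, limma adjusted p = 0.0438), and the call was lost in 9 of 10 fits without 1 library. It rose in ImuBcl6 D370Y too, with 23.1, 23.0, 22.2, 25.5 and 23.8 CPM, against 19.5, 19.4, 16.7, 20.6 and 19.7 CPM in ImuBcl6 (0.28 ± 0.07, adjusted p = 0.0278, lost in 5 of 10 such fits). In D370Y it averaged 22.3 ± 1.28 CPM, against 17.6 ± 2.54 CPM in WT (0.33 ± 0.09, adjusted p = 0.0720).

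Every D370Y library was female and every WT library male, and no sex term could be fitted within these groups. In 1 fit of all 28 libraries without a sex term, at the same log2 fold changes, Il9r (limma adjusted p = 0.0900) and Il10ra (adjusted p = 0.144) were no longer called in D370Y, and Il6st was (adjusted p = 0.0183). Only the KO and Cre control groups held both sexes, so a sex term in that fit was estimated from those libraries alone. KO replicate 3 was among them, and the labels name a kit for these groups and none for the other groups. With a sex term added to that fit, an alternative chosen after seeing the data, the D370Y difference was 0.58 for Il9r (limma adjusted p = 0.399), 0.47 for Il10ra (adjusted p = 0.212) and 0.35 for Il6st (adjusted p = 0.317). The ImuBcl6 D370Y difference of Il10ra was 0.57 (adjusted p = 0.0620). None of these passed with the sex term, where 35 of 11312 genes were called in D370Y and 270 of 11137 in ImuBcl6 D370Y. The term moved the median log2 fold change over all genes to 0.08 in D370Y and -0.09 in ImuBcl6 D370Y. In ImuBcl6 D370Y that fit gave 0.04 for Il10rb (adjusted p = 0.899), 0.16 for Ifnar2 (adjusted p = 0.459), -0.57 for Il28ra (adjusted p = 0.145) and -0.01 for Usp18 (adjusted p = 0.986), none called. Il10rb in D370Y missed the threshold in the fit of all libraries without a sex term (adjusted p = 0.0539) and was called with it (0.74). Of the downstream genes named below, Irf4 (adjusted p = 0.192), Prdm1 (adjusted p = 0.243), Bst2 (adjusted p = 0.164) and Oasl1 (0.38, adjusted p = 0.406) lost their calls in D370Y, and so did Bcl2 (0.40, adjusted p = 0.273). In ImuBcl6 D370Y, Bcl6 (adjusted p = 0.210) and Socs7 (adjusted p = 0.179) lost theirs.

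Differences between the effects were tested as contrasts of 4 groups. D370Y against WT set females against males, and ImuBcl6 D370Y against ImuBcl6 set males against females. Sex therefore cannot be told apart from background in the contrast between them. The contrast of KO with D370Y also mixes sex, zygosity (KO/KO against D370Y/WT) and any difference of kit. The labels name a kit for KO and its Cre control alone. None of the 8 chains passed limma's test in the D370Y effect with ImuBcl6 minus without, where 0.663% of 11166 genes were called, or in the KO effect minus the D370Y effect, where 0.145% of 11041 genes were called. With limma's unadjusted p under 0.05 were Il4ra and Il6st in the contrast between backgrounds, and Il6st in the contrast between KO and D370Y. Over all genes 1376 of 11166 had such a p in the contrast between backgrounds, and 678 of 11041 in the contrast between KO and D370Y. edgeR called none in either, and DESeq2 called 1, Il4ra between backgrounds (adjusted p = 0.0329), where it called 184 of 11166 genes. The Il9r contrast between backgrounds was -0.52 ± 0.28 (limma adjusted p = 0.463), so its call in D370Y alone was not shown to be a difference between backgrounds. For Il4ra it was 0.42 ± 0.12 (adjusted p = 0.133). For Il6st the contrast was -0.40 ± 0.18 (adjusted p = 0.383) between backgrounds and -0.51 ± 0.18 (adjusted p = 0.430) between KO and D370Y. For Il10ra these were 0.28 ± 0.18 (adjusted p = 0.551) and -0.02 ± 0.14 (95% interval -0.31 to 0.27).

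ImuBcl6 cells were also set against WT, where 53.3% of 10889 genes were called (24.7% higher and 28.6% lower), and the call of 4 of 8 chains is near that share. Il9r was higher in ImuBcl6, at 61.8 ± 17.2 CPM, against 24.8 ± 3.65 CPM in WT (2.49 times, 1.25 ± 0.18, limma adjusted p = 0.000215). Il4ra (-0.37 ± 0.08), Il10ra (-0.36 ± 0.10) and Ifngr1 (-0.40 ± 0.07) were lower. This comparison shares WT with the D370Y comparison and ImuBcl6 with the ImuBcl6 D370Y comparison. With all 28 libraries and a sex term Il9r stayed called (0.94, adjusted p = 0.0486), Il2rg was called (0.40, adjusted p = 0.0161), and Il4ra, Il10ra and Ifngr1 were not. Il2rg was also called over listed reads, with TMM, by edgeR, by DESeq2 and with library weights (adjusted p 0.00504 to 0.0490). Bcl6 was at 549.8 ± 24.5 CPM in ImuBcl6 and 363 ± 4.18 CPM in WT.

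Other receptor chains of the same classes were described from a list of 27, of which 18 were tested in D370Y, 19 in ImuBcl6 D370Y and 17 in KO. Called were 1 higher in D370Y (Il10rb), 2 higher and 1 lower in ImuBcl6 D370Y, and 1 higher in KO (Ifnar2). Over all genes 2.6%, 2.8% and 0.476% were called higher, and 5.38% lower in ImuBcl6 D370Y. The gene that fell was Il28ra, the specific chain of the interferon-lambda receptor. It had 5.35, 6.25, 4.69, 10.8 and 5.33 CPM in ImuBcl6 D370Y, against 12.2, 11.1, 9.44, 12.9 and 11.5 CPM in ImuBcl6 (-0.78 ± 0.17, limma adjusted p = 0.0161). Replicate 4 of ImuBcl6 D370Y lay within the ImuBcl6 range. The median log2 fold change over the list was 0.24 in D370Y, 0.16 in ImuBcl6 D370Y and 0.07 in KO, beside -0.02, -0.01 and -0.06 over all genes. Of 12 ligand genes, 1, 2 and 0 passed the filter on low values in these comparisons, and limma called none, with none at an unadjusted p under 0.05.

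**Figure D5:**
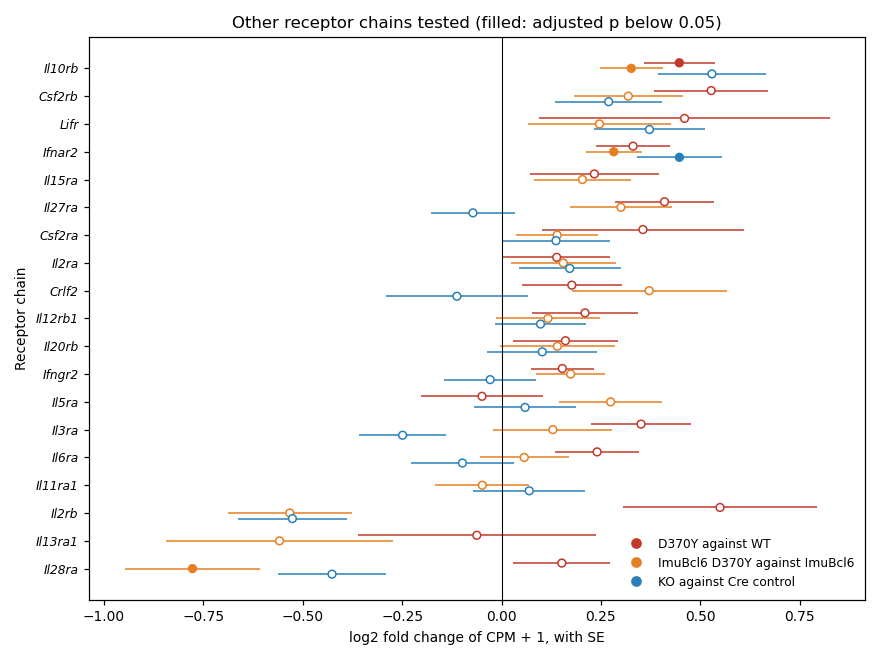
Log2 fold change of CPM + 1 (horizontal axis, with SE) of the other receptor chains tested in each allele comparison. Filled points passed limma's test at an adjusted p under 0.05, namely Il10rb in both D370Y comparisons, Ifnar2 in ImuBcl6 D370Y and KO, and Il28ra in ImuBcl6 D370Y. A chain without a point was under the low-value filter.

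Downstream of the receptors, all 4 JAK kinases were tested in each allele comparison, and limma called none, with none at an unadjusted p under 0.05. Among STAT genes, Stat4 passed in ImuBcl6 D370Y, at 27.8 ± 4.34 CPM, against 17.2 ± 2.71 CPM in ImuBcl6 (0.66 ± 0.12, limma adjusted p = 0.00661). STAT4 is activated by IL-12 and by type I interferon. Signalling inhibitors had 0 of 16 called in D370Y, where 1 had an unadjusted p under 0.05, as held for 1941 of 10600 genes. They had 2 of 15 lower in ImuBcl6 D370Y and 1 of 15 lower in KO, beside 5.38% and 0.913% of all genes. Socs3, whose protein binds gp130 and blocks its signal, fell to 2.90 ± 0.682 CPM in KO, against 5.43 ± 0.287 CPM in the Cre control (-0.74 ± 0.13, adjusted p = 0.00344). Usp18, which restrains the type I interferon receptor, fell to 12.4 ± 3.13 CPM in ImuBcl6 D370Y, against 18.8 ± 2.16 CPM in ImuBcl6 (-0.59 ± 0.14, adjusted p = 0.0248, lost in 3 of 10 fits without 1 library). Socs7 was the other (-0.28 ± 0.08, adjusted p = 0.0463, lost in 8 of 10 such fits).

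Known target genes of these pathways were counted by list. Over all genes limma called 2.6% higher in D370Y, 2.8% in ImuBcl6 D370Y and 0.476% in KO, and 0.943%, 5.38% and 0.913% lower. An unadjusted p under 0.05 was held by 1941 of 10600, 2580 of 10784 and 951 of 10514 genes in these comparisons. IL-4 and STAT6 targets had 0 of 5 called by limma in each allele comparison, with 0, 0 and 2 at an unadjusted p under 0.05 in D370Y, ImuBcl6 D370Y and KO. Of 5 IL-21 and STAT3 targets 2 rose in D370Y, and both drive plasma cell differentiation. Irf4 had 87.3 ± 11.4 CPM in D370Y, against 60.2 ± 1.53 CPM in WT (0.52 ± 0.09, limma adjusted p = 0.00779, lost in 1 of 8 fits without 1 library). Prdm1 had 25.3 ± 9.05 CPM in D370Y, against 11.2 ± 3.22 CPM in WT (1.07 ± 0.26, adjusted p = 0.0466, lost in 7 of 8 such fits). In ImuBcl6 D370Y 1 of 5 fell, Bcl6 (-0.24 ± 0.06, adjusted p = 0.0344, lost in 6 of 10 such fits), whose ImuBcl6 allele both groups carry. In KO 0 of 5 were called, with 1 at an unadjusted p under 0.05.

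Of the STAT5 targets 2 of 4 rose in D370Y, 1 of 3 in ImuBcl6 D370Y and 1 of 3 in KO, beside 2.6%, 2.8% and 0.476% of all genes. The survival gene Bcl2 was among them in all 3. It had 17.6 ± 2.93 CPM in D370Y, against 10.2 ± 0.589 CPM in WT (0.72 ± 0.11, limma adjusted p = 0.00393), and 15.7 ± 2.04 CPM in ImuBcl6 D370Y, against 7.01 ± 1.69 CPM in ImuBcl6 (1.08 ± 0.14, adjusted p = 0.00125). In KO it had 4.34 ± 0.720 CPM, against 2.62 ± 0.507 CPM in the Cre control (0.56 ± 0.13, adjusted p = 0.0336, lost in 7 of 10 fits without 1 library). The cyclin gene Ccnd2 rose in D370Y to 46.1 ± 9.95 CPM, against 16.7 ± 0.582 CPM in WT (1.38 ± 0.15, adjusted p = 0.000616). Its KO effect minus its D370Y effect was -1.32 ± 0.18 (adjusted p = 0.000453). Its D370Y effect with ImuBcl6 minus without was -0.98 ± 0.22 (adjusted p = 0.0494, lost in 15 of 18 fits without 1 library). Under the other settings the highest adjusted p was 0.0402 for the first of these contrasts and 0.286 for the second. Sex is mixed into both contrasts of Ccnd2, and the first also mixes in zygosity and any difference of kit, named for KO and its Cre control alone.

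Type I interferon targets had 2 of 12 higher in D370Y, Bst2 (0.49 ± 0.10) and Oasl1 (0.62 ± 0.16, lost in 5 of 8 fits without 1 library). Over all genes 2.6% were called higher in D370Y, 2.8% in ImuBcl6 D370Y and 0.476% in KO. In ImuBcl6 D370Y 0 of 13 were called by limma, with 1 at an unadjusted p under 0.05, and in KO 1 of 10 rose, Ifit3 (0.74 ± 0.18, lost in 8 of 10 fits without 1 library). The median of this list was 0.46 in D370Y, 0.15 in ImuBcl6 D370Y and 0.17 in KO, beside -0.02, -0.01 and -0.06 over all genes.

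Within groups, the chains varied together to different degrees. After subtracting each group's mean log2(CPM + 1), Pearson's r over the 28 libraries was 0.72 between Il21r and Il2rg and 0.70 between Il21r and Il4ra. Without KO replicate 3 these were 0.56 and 0.54. Il6st and Ifngr1 ran opposite (r = -0.61, and -0.57 without that library). Il9r and Il10ra, both higher in D370Y, had r = 0.11. Values of a library share its depth and its CPM denominator.

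By the same measure, over 8441 genes with a mean of at least 5 CPM, Il9r was most like Capg (r = 0.78), Irgm1 (0.75) and Pml (0.74). Il10ra was most like Pld4 (0.79), Sirpa (0.77) and Pdxk (0.75). For Il6st they were Prdm1 (0.83), Reln (0.77) and Fam101a (0.76). Il21r was closest to Cnpy3 (0.91), Il4ra to Supt5h (0.86), Il2rg to Map2k1 (0.86), Ifngr1 to Bcl2a1b (0.91) and Ifnar1 to Lass2 (0.73). Without KO replicate 3 these 5 values were 0.86, 0.77, 0.76, 0.85 and 0.71.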

How the data were processed

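Per the labels' protocols, total RNA of mouse germinal center B cells was extracted with Trizol and a column kit, and STAR and the build mm10 are named, without versions, per the submitters' processing notes. Counting tool, strand setting and annotation are not given in the sources used here, so reads of overlapping or antisense genes could be shared. The authors deposited CPM values for 23382 gene symbols per library. Every deposited value was a whole multiple of 1 read within 0.01 of a read (100% of values), so whole reads were recovered for edgeR and DESeq2.

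The 8 chains and the gene lists were chosen with earlier results of these data known. Each comparison was fitted over its own 2 groups, and differences of effects over 4 groups, with limma 3.58.1 (R 4.3.3, trend and robust moderation) on log2(CPM + 1). Genes needed at least 1 CPM in as many libraries as the smallest group. All 8 chains passed this filter everywhere. Tests were two-sided, with Benjamini-Hochberg adjustment over all genes tested and a threshold of 0.05. Fold changes understate the change of genes at low levels. Named genes were the chains, Tbl1xr1 and Bcl6, up to 4 called genes per list, and the 3 genes most like each chain. Alternatives were a pseudocount of 0.25, no filter, CPM over listed reads, TMM, edgeR 4.0.16, DESeq2 1.42.0, library weights, all 28 libraries in 1 fit, a replicate block, a sex term and each library left out. The fits were tested on simulated data. Recovered reads carry counting error, and 3 reads are the limit that a count of 0 allows. The results of 1 list of target genes are not reported here.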

Additional observations from a re-analysis of the deposited data

Results flagged for a closer look

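In 3 of 40 groups of 5 libraries the highest or lowest library lay farther from the nearest of the others than Dixon's 95% critical value of 0.71 of the range allows. Chance gives about 1 in 20 such groups. Il9r in ImuBcl6 D370Y replicate 3 was 126 CPM, with 60.8 to 78.8 CPM in the other 4 libraries of that group, and the same library was highest in Il10ra at 95.2 CPM. Il4ra in ImuBcl6 D370Y replicate 4 was 349.7 CPM, and Il4ra in KO replicate 3 was 304.2 CPM, the library with 64.4% of the CPM denominator on listed genes. Counted over the reads on listed genes, Il4ra in that KO library was 472.3, with 505.8 to 563.3 in the other 4 KO libraries.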

How the results depend on the processing

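Counts over all genes tested stand in brackets beside the counts of chains. In D370Y 3 chains were called (376 of 10600 genes), and 1 with all 28 libraries in 1 fit (249 of 11312). It was 0 with a sex term added (35 of 11312), and 1 to 3 without 1 library. In ImuBcl6 D370Y 1 was called (882 of 10784 genes), and 3 by DESeq2 (1378 of 10784). It was 0 with all libraries and a sex term (270 of 11137), and 1 without any 1 library. In KO 0 were called (146 of 10514 genes). It was 1 over listed reads (239 of 10691), with TMM (216 of 10738), by edgeR (238 of 10514) and by DESeq2 (455 of 10514). It was 2 with library weights (1111 of 10514), and 0 to 2 without 1 library, the 2 without KO replicate 3 (449 of 10561). In ImuBcl6 against WT 4 were called (5802 of 10889 genes), and 2 with all libraries and a sex term (4836 of 11312). With Il2rg added it was 5 over listed reads (5845 of 11079), with TMM (5862 of 11070), by edgeR (5632 of 10889) and by DESeq2 (5884 of 10889). It was also 5 with library weights (6946 of 10889), and 4 to 5 without 1 library. For the difference between backgrounds 0 were called (74 of 11166 genes). It was 1, Il4ra, by DESeq2 (184 of 11166) and with weights (197 of 11166). For KO minus D370Y it was 0 (16 of 11041), and 2 with weights, Il4ra and Il6st (211 of 11041). The cause was not tested.

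Whether the replicate numbers pair the libraries is not known. Between ImuBcl6 D370Y and ImuBcl6, same-numbered libraries deviated together with r = 0.57 for replicate 1 and r = -0.32 for replicate 3. The main fits used no pairing. With the replicate number as a block 2 chains were called in ImuBcl6 D370Y, Il10ra and Il4ra, where 1000 of 10784 genes were called. Over all genes the counts called ranged from 35 to 973 in D370Y, 270.0 to 1378 in ImuBcl6 D370Y, 86 to 1111 in KO and 4836 to 6946 in ImuBcl6 against WT under the other settings, and from 124 to 473, 434 to 1016, 87 to 449 and 4525 to 6417 without 1 library. For the difference between backgrounds they ranged from 4 to 197 and for KO minus D370Y from 5 to 211. Of the calls in ImuBcl6 D370Y 34.2% were higher, and 44.7% over listed reads. In KO 34.2% were higher, and 48.5% over listed reads.

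Log2 fold changes of chains that changed sign were near 0 in most cases. In D370Y these were Il21r at 0.0211 over listed reads, Ifngr1 at -0.0278 with the replicate block, and Il21r at 0.135 and Il4ra at 0.0818 with all libraries and a sex term. In ImuBcl6 D370Y they were Il2rg at -0.166 and the plasma cell marker 2010001M09Rik at -0.0740 with that term. In KO Il4ra was 0.0621 over listed reads, 0.0522 with TMM, 0.0708 by edgeR, 0.0696 by DESeq2 and 0.111 with weights, where Il21r was 0.0108 and Il6st -0.0765, and Ifngr1 was -0.0577 with a sex term. In ImuBcl6 against WT Il6st was 0.0129 over listed reads, 0.0102 by edgeR and 0.00429 by DESeq2, and Il21r 0.108 with all libraries and a sex term. Between backgrounds Il9r was 0.108, Il4ra -0.00553 and Il6st 0.107 with that term. For KO minus D370Y Il10ra was 0.00305 over listed reads, 0.0527 with TMM, 0.0561 by edgeR, 0.0784 by DESeq2, 0.0394 with weights and 0.00547 with the block. Il21r was 0.0187 with TMM, 0.0284 by edgeR, 0.0497 by DESeq2 and 0.0591 with weights. Ifngr1 was 0.0259 with TMM, 0.0308 by edgeR, 0.0519 by DESeq2, 0.0850 with weights and 0.0250 with the block, and Il4ra -0.167 with a sex term.

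Without 1 library, values that changed sign ranged in D370Y from -0.0404 to 0.00861 (Il21r) and -0.000642 to 0.139 (Ifngr1), in ImuBcl6 D370Y from -0.0247 to 0.0846 (Il2rg), in KO from -0.0219 to 0.155 (Ifngr1), -0.114 to 0.0118 (Il21r) and -0.0441 to 0.108 (Il4ra), in ImuBcl6 against WT from -0.0736 to 0.0216 (Il21r) and -0.0714 to 0.0699 (Il6st), and for KO minus D370Y from -0.0804 to 0.0491 (Il10ra), -0.108 to 0.0686 (Ifngr1) and -0.0981 to 0.0272 (Il21r). The chains had at least 147 reads in every library, and the effect of depth was not tested.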
